A study of Mus musculus with 8 samples.

Results

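The small nucleolar RNA (snoRNA) host genes are long noncoding RNA genes whose transcripts carry snoRNAs. The genes Gas5, Snhg1, Snhg5, Snhg6, Snhg3, Snhg4, Snhg8, Snhg12 and Snhg11 were taken by name and make 9 of the 23355 genes in the table. Snhg4 stood in 2 rows, so the 9 names gave 10 rows. RNA came from epithelial cells of the cheek lining (buccal mucosa), sorted by flow cytometry, of wild type C57BL/6 mice kept specific pathogen free and given no treatment. There were 4 mice of 8 weeks and 4 mice of 1 week of age, with 1 library of total RNA depleted of ribosomal RNA for each mouse. Sex, the gate of the sort and any batch are not given in the sources used here. The single comparison of the study sets the adult age against the first postnatal week.

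snoRNAs guide chemical changes of ribosomal RNA in the nucleolus. Those with C and D boxes direct methylation of the ribose, and those with H and ACA boxes direct pseudouridylation, while a few act in the cutting of the ribosomal RNA precursor. In vertebrates most of them are excised from introns of a host transcript. The spliced remainder of a noncoding host gene is often translated for a short stretch and removed by nonsense-mediated decay, and many host genes start their transcripts with a run of pyrimidines, as ribosomal protein genes do. Gas5 is named for its accumulation in growth-arrested cells.

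The host genes fell into those of C/D and those of H/ACA snoRNAs by their annotated content. Gas5 held 10 annotated snoRNAs, of which 7 showed a C box (TGATGA within the first 20 bases) and a D box (CTGA starting within the last 15) and no ACA box (ACA in the last 6 bases), and 1 showed all of these. Snord80 is annotated 2 times among the 10 and among the 7. Snhg1 held 8, of which 6 showed both boxes. Snhg5 held 2 and Snhg6 held 1, each with both boxes. Snhg3 held 2 and Snhg8 held 1, each with the ACA box and without the C and D boxes. Snhg4 held 2, of which 1 showed the ACA box. Snhg12 held 5 annotations, of which 3 showed the ACA box (Snora16a is annotated 2 times) and 1, Snord99, the C and D boxes. Snhg11 held 2 with the ACA box. Of all 1507 annotated mouse snoRNAs, 20.3% showed the C and D boxes and 44.4% the ACA box by the same letters, each searched on the transcript's own strand, so a match is a description of the sequence.

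**Figure D1:**
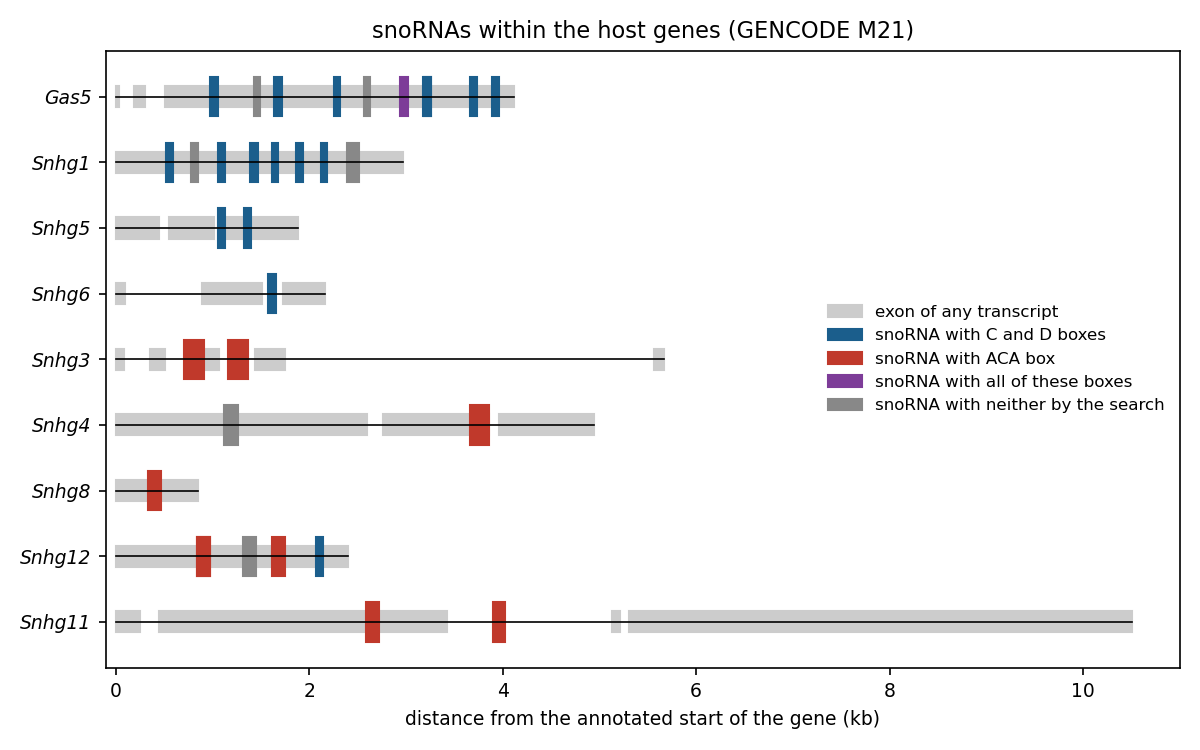
Annotated snoRNAs (coloured by the boxes found in their sequence) and exons of any transcript (grey) along each host gene, with distance from the annotated gene start in kb on the x axis. Gas5 and Snhg1 carry rows of C/D snoRNAs, Snhg3 carries 2 snoRNAs of 205 bases, and the snoRNAs of most host genes lie over exons of some annotated transcript.

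Some snoRNAs of each kind are shown because they are the products that the host genes are named for. Sequences are GRCm38 in GENCODE M21, 5′ to 3′, with the C, D and ACA boxes in capitals. Snord47 of Gas5 lies at chr1:161038082-161038158 on the plus strand, Snord50a of Snhg5 at chr9:88521529-88521600 on the minus strand and Snord87 of Snhg6 at chr1:9942463-9942549 on the minus strand. Snora73a and Snora73b of Snhg3 lie at chr4:132352775-132352979 and chr4:132352322-132352526 on the minus strand. Snora24 of Snhg8 lies at chr3:123507937-123508066 on the minus strand and Snora61 of Snhg12 at chr4:132310240-132310369 on the plus strand.
Snord47: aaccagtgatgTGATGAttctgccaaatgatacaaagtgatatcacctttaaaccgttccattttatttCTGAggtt
Snord50a: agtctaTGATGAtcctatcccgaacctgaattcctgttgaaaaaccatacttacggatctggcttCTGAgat
Snord87: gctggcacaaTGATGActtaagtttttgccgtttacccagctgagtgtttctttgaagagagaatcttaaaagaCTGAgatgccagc
Snora73a: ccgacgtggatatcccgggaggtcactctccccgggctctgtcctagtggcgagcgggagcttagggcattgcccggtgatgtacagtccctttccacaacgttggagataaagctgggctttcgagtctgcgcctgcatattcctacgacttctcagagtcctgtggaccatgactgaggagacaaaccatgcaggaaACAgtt
Snora73b: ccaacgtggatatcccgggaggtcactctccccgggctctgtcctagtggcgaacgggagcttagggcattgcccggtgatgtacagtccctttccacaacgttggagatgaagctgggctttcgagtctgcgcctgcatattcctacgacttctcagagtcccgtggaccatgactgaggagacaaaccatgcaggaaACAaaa
Snora24: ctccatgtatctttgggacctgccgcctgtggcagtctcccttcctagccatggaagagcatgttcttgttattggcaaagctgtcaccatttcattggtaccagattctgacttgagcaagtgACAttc
Snora61: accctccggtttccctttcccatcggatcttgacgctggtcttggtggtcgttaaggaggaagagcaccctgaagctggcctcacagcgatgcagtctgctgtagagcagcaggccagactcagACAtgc

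The 2 snoRNAs of Snhg3 differed at 7 of 205 positions, and Snord50a and Snord50b of Snhg5 at 1 of 72. Snora73 RNA is one of the snoRNAs known for a part in cutting the ribosomal RNA precursor. Of the 205 bases of Snora73a, 159 lay in an annotated exon of Snhg3, and of Snora73b 0. Snora24 and Snora61 lay wholly within exons of their hosts, and Snord87 lay wholly within an intron of Snhg6. The table held 0 rows of the gene type snoRNA. Where a snoRNA lies in an exon of its host, the part of the count from the snoRNA cannot be told apart from that of the host transcript. Snord87 and Snora73b lay outside the host exons in GENCODE M21, but the annotation release of the count is not known.

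Start sites were read from 60 bases around the RefSeq start of each gene (GRCm38.p6), 30 on each side. A start run was a C followed on the same strand by C or T, at least 5 bases in all, within 10 bases of the annotated start. RefSeq gave 8 promoters for 7 of the 9 genes, and 5 of the 8 promoters (62.5%) had a run. Gas5 has a pair of RefSeq starts, of which the one shown had a run and the other, at chr1:161034571-161034630, had none. The run was present in 55.4% of 74 promoters of ribosomal protein genes and in 30.7% of 32851 promoters in all. The promoters of Gas5, Snhg12 and Snhg8 are shown with the run in capitals, and that of Snhg1, which had none by this rule, for contrast. They lie at chr1:161035136-161035195 (plus strand), chr4:132308648-132308707 (plus strand), chr3:123508307-123508366 (minus strand) and chr19:8723457-8723516 (plus strand).
Gas5: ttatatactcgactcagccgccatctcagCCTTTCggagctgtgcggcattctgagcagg
Snhg12: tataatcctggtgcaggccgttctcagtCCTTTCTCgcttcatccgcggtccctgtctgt
Snhg8: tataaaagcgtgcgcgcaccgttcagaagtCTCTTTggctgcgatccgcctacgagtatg
Snhg1: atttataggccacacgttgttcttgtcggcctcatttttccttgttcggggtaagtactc

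Libraries held 13037171 to 16807773 counts at 8 weeks and 11747783 to 13169992 counts at 1 week. Keratins and other epithelial markers were abundant at both ages, with 10 of 10 tested and 0 called (6.55% of all tested genes were called in either direction). The ages did not overlap for Krt14, lower at 8 weeks (log2 fold change -0.49). Nor did they for Krt4 (0.31), Cdh1 (0.26), Dsp (0.27) and Dsg3 (0.27), higher at 8 weeks, while the rest overlapped. Of all tested genes, 7.11% were lower at 8 weeks without overlap. The share higher without overlap is not given here, so these markers are not set against it. Small structural RNA (rows of the type misc_RNA, Rmrp, Bc1, and Ccnb1ip1, whose annotated gene overlaps that of the RNase P RNA) set libraries apart. It took 1.62%, 1.12%, 2.01% and 1.55% of the counts in 8 weeks 1 to 8 weeks 4, against 5.92%, 2.82%, 1.01% and 9.15% in 1 week 1 to 1 week 4. 1 week 1 and 1 week 4 stood above all other libraries, so the values of the 9 genes are also given without them.

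At 8 weeks, Snhg1, Snhg6, Snhg3 and Snhg4 were lower than at 1 week, by 1.69-fold, 1.47-fold, 3.10-fold and 3.67-fold. These were 4 of the 9 host genes, with 0 called higher, while 3.22% of all 14533 tested genes were called lower and 3.33% higher. In 3 of the 9 (Snhg1, Snhg6 and Snhg4) all libraries of 8 weeks lay below all of 1 week, against 7.11% of all tested genes. The fold change was negative for 8 of the 9, against 50.2% of all tested genes. The median log2 fold change (8 weeks over 1 week) was -0.59 over the 9 genes and 0.00 over all tested genes. The median of the 9 was -0.15 with an offset for transcript length and GC content and -0.20 without 1 week 1 and 1 week 4. A gene was called at an adjusted p under 0.05 by edgeR's quasi-likelihood test with Benjamini-Hochberg adjustment over all tested genes. Without 1 week 1 and 1 week 4, 0 of the 9 were called, and 0.187% of all genes tested were called lower. With the length and GC offset 2 of the 9 were called lower, against 1.64% of all genes. The Wald test of DESeq2 called 5 of the 9 lower, against 7.59% of all genes, and limma-voom called 4, against 5.97%. Levels are given as CPM, the read count divided by the library's TMM-scaled total on a common scale, and errors are standard deviations (SD) over 4 mice unless named SE. In sorted bulk cells, fewer cells of a type and less RNA per cell cannot be told apart.

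**Figure D2:**
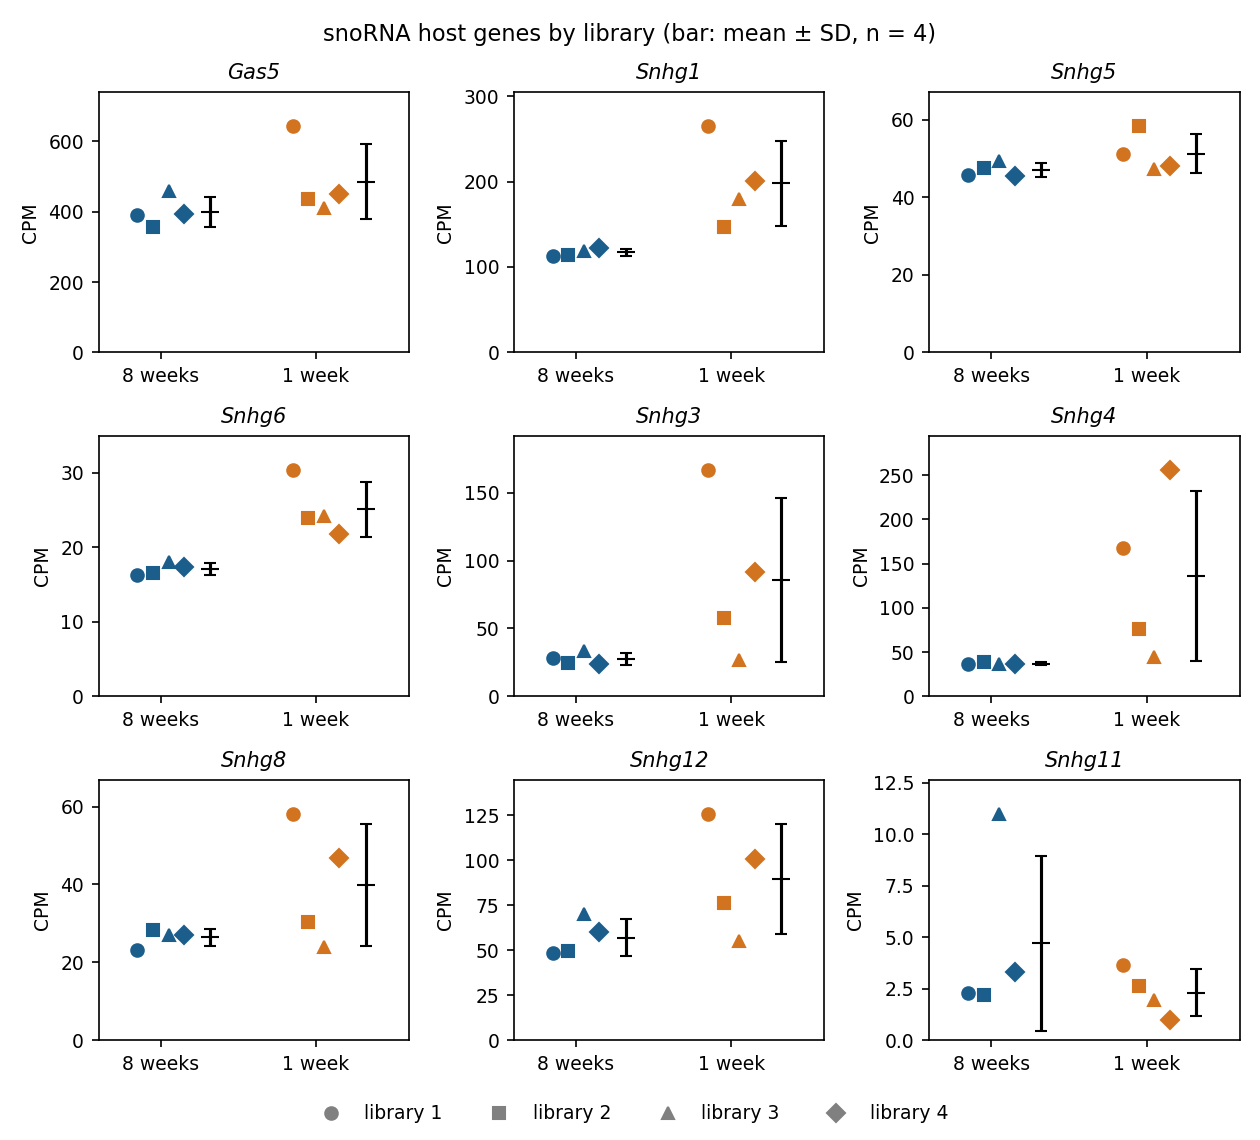
CPM of each host gene in the 4 libraries of 8 weeks (blue) and the 4 of 1 week (orange), with mean ± SD beside them and a linear axis from 0. Libraries of 8 weeks lie close together for Snhg1 (113 to 122 CPM) and Snhg4 (36.0 to 38.8 CPM), while those of 1 week spread from 147 to 265 CPM and from 44.1 to 256 CPM.

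Among the hosts of C/D snoRNAs, Gas5 (ENSMUSG00000053332, chromosome 1, 161034422 to 161038539, plus strand) was the most abundant. It stood at 389, 357, 458 and 394 CPM in the libraries of 8 weeks, against 643, 435, 410 and 450 CPM in those of 1 week. The ages overlapped, and 1 week 1 was the highest of the 8 libraries. Gas5 averaged 399 ± 42.1 CPM at 8 weeks and 485 ± 107 CPM at 1 week (SD, n = 4 each). Its log2 fold change was -0.28 (SE 0.14), with an interval of 2 SE from -0.57 to 0.01, and it did not pass the test (edgeR adjusted p = 0.223). Without 1 week 1 and 1 week 4 it was -0.08 (adjusted p = 0.796). The zinc finger gene Zbtb37, which overlaps Gas5 on the other strand without shared exon bases, stood at 30.6 ± 9.73 CPM at 8 weeks and 20.7 ± 4.71 CPM at 1 week (edgeR adjusted p = 0.111).

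Snhg1 (ENSMUSG00000108414, chromosome 19, 8723475 to 8726443, plus strand) holds Snord22 and C/D snoRNAs in exons of annotated transcripts. It stood at 113, 114, 119 and 122 CPM at 8 weeks, against 265, 147, 179 and 201 CPM at 1 week. The ages did not overlap, and the libraries of 8 weeks were within 1.08-fold of each other. The means were 117 ± 4.24 CPM at 8 weeks and 198 ± 49.8 CPM at 1 week, a log2 fold change of -0.76 (SE 0.15, edgeR adjusted p = 0.0171). The call was lost without 8 weeks 1 (adjusted p = 0.0556), without 8 weeks 3 (0.0533) and without both 1 week 1 and 1 week 4 (log2 fold change -0.48, 0.0897). With an offset for transcript length and GC content it held, at -0.66 (adjusted p = 0.0263). Slc3a2, an amino acid transporter subunit that starts 106 bases away on the other strand, stood at 185 ± 24.9 CPM at 8 weeks and 207 ± 36.2 CPM at 1 week (edgeR adjusted p = 0.444).

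Snhg5 (ENSMUSG00000097195, chromosome 9, 88495268 to 88523562, minus strand), the host of Snord50a and Snord50b, varied least among the libraries of 1 week. It stood at 45.8, 47.5, 49.3 and 45.4 CPM at 8 weeks, against 51.3, 58.4, 47.4 and 48.0 CPM at 1 week. The ages overlapped, with means of 47.0 ± 1.79 CPM at 8 weeks and 51.2 ± 5.04 CPM at 1 week. The log2 fold change of -0.13 (SE 0.10, interval -0.32 to 0.07) did not pass the test (edgeR adjusted p = 0.428), and with the length and GC offset it was 0.17 (adjusted p = 0.415). Without 1 week 1 and 1 week 4 it was -0.17 (adjusted p = 0.51). The deposited position of Snhg5 is wider than its annotation in GENCODE M21.

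Snhg6 (ENSMUSG00000098234, chromosome 1, 9941959 to 9944118, minus strand) is the one host of the 9 whose snoRNA lies wholly in an intron. It stood at 16.3, 16.5, 18 and 17.4 CPM at 8 weeks, against 30.4, 23.9, 24.2 and 21.8 CPM at 1 week. The ages did not overlap, with means of 17.1 ± 0.758 CPM at 8 weeks and 25.1 ± 3.72 CPM at 1 week. The log2 fold change was -0.55 (SE 0.13, edgeR adjusted p = 0.0295). With the length and GC offset it was -0.15 (adjusted p = 0.498), and without 1 week 1 and 1 week 4 it was -0.49 (adjusted p = 0.132). The call was also lost without 1 week 1, 8 weeks 1, 8 weeks 3 or 8 weeks 4, with adjusted p up to 0.0977, and with library size alone (0.0511). Of its exon bases 127 are antisense to Mcmdc2, which stood at 1.27 ± 0.323 CPM at 8 weeks and 0.665 ± 0.472 CPM at 1 week.

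The hosts of H/ACA snoRNAs begin with Snhg3, the host of Snora73a and Snora73b. Snhg3 (ENSMUSG00000085241, chromosome 4, 132348014 to 132353686, minus strand) stood at 28.3, 24.8, 33.5 and 24.0 CPM at 8 weeks, against 167, 57.9, 26.9 and 91.3 CPM at 1 week. The ages overlapped through 1 week 3, and the highest library of 1 week was 6.23-fold above the lowest. The means were 27.6 ± 4.32 CPM at 8 weeks and 85.9 ± 60.3 CPM at 1 week, a log2 fold change of -1.63 (SE 0.39, edgeR adjusted p = 0.0327). It was -1.0 with the length and GC offset (adjusted p = 0.0964), -1.08 without 1 week 1 (0.0899) and -0.61 without 1 week 1 and 1 week 4 (0.223). The call was also lost without 8 weeks 1 (0.0953), 8 weeks 3 (0.0691) or 8 weeks 4 (0.0656).

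Exons of Snhg3 overlap those of its neighbours. Rcc1, the exchange factor of the GTPase Ran, shares 135 of the 986 exon bases of Snhg3 on the same strand, and the noncoding gene Gm17300 covers 705 of them on the other strand. Rcc1 stood at 35.1 ± 4.71 CPM at 8 weeks and 43.2 ± 7.96 CPM at 1 week, a log2 fold change of -0.30 that did not pass the test (edgeR adjusted p = 0.185). Gm17300 stood at 0.549 ± 0.297 CPM at 8 weeks and 2.23 ± 1.55 CPM at 1 week and was called lower (log2 fold change -2.01, SE 0.56, edgeR adjusted p = 0.048). No source used here names the strand setting of the count, so it is not known whether reads of Snhg3 and of Gm17300 were told apart.

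Snhg4 (ENSMUSG00000117869, chromosome 18, 35553371 to 35558316, plus strand) is the host of Snora74a and had the lowest log2 fold change of the 9. It stood at 36.0, 38.8, 36.9 and 36.4 CPM at 8 weeks, against 168, 75.8, 44.1 and 256 CPM at 1 week. The ages did not overlap, and the spread of 1.08-fold among libraries of 8 weeks compares with 5.81-fold among those of 1 week. The means were 37.0 ± 1.22 CPM at 8 weeks and 136 ± 95.9 CPM at 1 week, a log2 fold change of -1.88 (SE 0.39, edgeR adjusted p = 0.0226). It was -1.64 with the length and GC offset (adjusted p = 0.047) and -0.69 without 1 week 1 and 1 week 4 (0.0923). The call was lost without 1 week 1 (0.0656), 8 weeks 1 (0.069) or 8 weeks 3 (0.0614). The nuclear matrix protein gene Matr3, which begins downstream on the same strand, stood at 130 ± 9.90 CPM at 8 weeks and 127 ± 7.26 CPM at 1 week (edgeR adjusted p = 0.841). The second row of that name (ENSMUSG00000117694, a protein-coding model) held 24 counts over all libraries and was too low to test. Of its 2166 exon bases 2000 are shared with other genes on the same strand.

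Snhg8 (ENSMUSG00000104960, chromosome 3, 123507552 to 123508404, minus strand) stood at 23.2, 28.4, 27.0 and 26.9 CPM at 8 weeks, against 58.2, 30.4, 23.8 and 46.8 CPM at 1 week. The ages overlapped, with 1 week 1 and 1 week 4 high and 1 week 3 within the range of 8 weeks. Its means were 26.4 ± 2.23 CPM at 8 weeks and 39.8 ± 15.6 CPM at 1 week (log2 fold change -0.59, SE 0.22, interval -1.03 to -0.16, edgeR adjusted p = 0.102). It was -0.35 without 1 week 1 (adjusted p = 0.321), -0.14 with the length and GC offset (0.64) and -0.04 without 1 week 1 and 1 week 4 (0.916). Without 1 week 3 it was -0.77, and the gene was called (0.0361).

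Snhg12 (ENSMUSG00000086290, chromosome 4, 132308623 to 132311024, plus strand) lies on the chromosome of Snhg3 and on the other strand. It stood at 48.5, 49.5, 70.1 and 60.1 CPM at 8 weeks, against 126, 76.1, 55.1 and 101 CPM at 1 week. The ages overlapped through 1 week 3. The means were 57.0 ± 10.1 CPM at 8 weeks and 89.6 ± 30.7 CPM at 1 week (log2 fold change -0.65, SE 0.21, interval -1.07 to -0.23, edgeR adjusted p = 0.0729). It was -0.44 without 1 week 1 (adjusted p = 0.22), -0.41 with the length and GC offset (0.265) and -0.20 without 1 week 1 and 1 week 4 (0.571). The gene was called without 1 week 3 (-0.83, 0.0279), and in the authors' deposited table its adjusted p was 0.034. Trnau1ap, a factor of selenocysteine tRNA 739 bases away on the other strand, stood at 24.9 ± 2.19 CPM at 8 weeks and 31.1 ± 4.37 CPM at 1 week (edgeR adjusted p = 0.113).

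Snhg11 (ENSMUSG00000044349, chromosome 2, 158375638 to 158386151, plus strand), known in mouse as a transcript of neurons, is typed protein-coding in the table. It stood at 2.29, 2.17, 11 and 3.30 CPM at 8 weeks, against 3.67, 2.64, 1.94 and 0.979 CPM at 1 week. 8 weeks 3, with 170 counts, stood alone and the other libraries overlapped. The means were 4.69 ± 4.23 CPM at 8 weeks and 2.31 ± 1.13 CPM at 1 week, a log2 fold change of 1.02 (SE 0.53, interval -0.04 to 2.08, edgeR adjusted p = 0.227). Without 8 weeks 3 it was 0.17 (adjusted p = 0.861), and without 1 week 1 and 1 week 4 it was 1.04 (0.405). The neuronal tubulin gene Tubb3 ranged from 7.41 to 22.3 CPM at 8 weeks and from 22.8 to 41.2 CPM at 1 week, and the synaptic gene Snap25 averaged 0.139 CPM at 8 weeks and 0.128 CPM at 1 week. Their part in the level of Snhg11 was not tested.

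In the authors' deposited table, which also gives fold changes of 8 weeks over 1 week, Snhg1 (log2 fold change -0.75, adjusted p = 0.000134), Snhg6 (-0.55, 0.00594), Snhg4 (-1.87, 0.0139) and Snhg3 (-1.63, 0.0379) were also below the threshold. That table called 3.28% of its genes lower.

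The sum of the 9 genes was 702, 679, 822 and 730 CPM at 8 weeks, against 1513, 908, 813 and 1219 CPM at 1 week. The hosts of H/ACA snoRNAs without Snhg11 (Snhg3, Snhg4, Snhg8 and Snhg12) summed to 136, 141, 167 and 147 CPM at 8 weeks, against 519, 240, 150 and 496 CPM at 1 week. The hosts of C/D snoRNAs summed to 564, 535, 644 and 579 CPM at 8 weeks, against 990, 665, 661 and 721 CPM at 1 week. In 1 week 3 the sum of the H/ACA hosts was within the range of 8 weeks. Snhg4 alone, at 44.1 CPM in that library, was above its highest value at 8 weeks (38.8 CPM). Gas5 took 52.6% to 55.6% of the counts of the 9 genes at 8 weeks and 37.0% to 50.4% at 1 week.

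**Figure D3:**
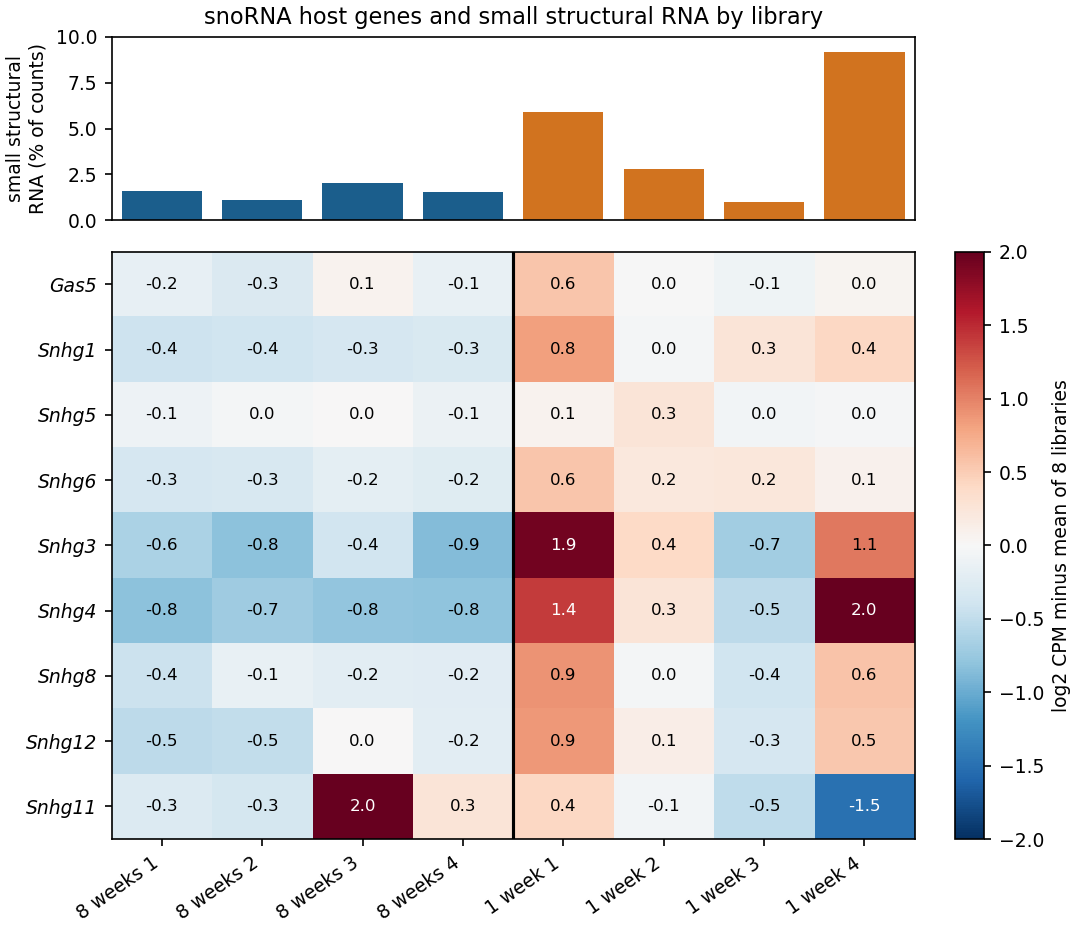
Top, small structural RNA as a percentage of counts in each library. Below, log2 CPM of each host gene in each library minus its mean over the 8 libraries, with 8 weeks on the left. Snhg3, Snhg4, Snhg8 and Snhg12 are high in 1 week 1 and 1 week 4, the libraries with 5.92% and 9.15% of small structural RNA, and low in 1 week 3, with 1.01%.

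The order of the libraries of 1 week was the same for Snhg4 and for small structural RNA, with 1 week 4 highest, then 1 week 1, 1 week 2 and 1 week 3. For Snhg3, Snhg8 and Snhg12 the first and second places were exchanged. The part of small structural RNA in the differences between the ages was not tested. Within each age, the deviations of log2 CPM from the age mean were alike between Snhg3 and Snhg8 (Pearson r = 0.93 over 8 libraries), Snhg3 and Snhg12 (0.92), and Snhg4 and Snhg8 (0.89). Between Snhg5 and Snhg1 r was -0.42. These points share libraries, depth and scaling, and most of the spread lies in the libraries of 1 week.

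Levels can be compared between genes only per length, here as CPM per kb of the exons of all transcripts in GENCODE M21. For Snhg5 and Snhg11 the deposited positions differ from M21, so their levels per kb and ranks rest on a gene model other than the one counted. The exons of all transcripts exceed the longest transcript unequally. They are 4666 against 1676 bases for Snhg4, 986 against 581 for Snhg3 and 853 against 776 for Snhg8. The order and the overlaps below therefore hold for this choice of length only. At 8 weeks the order was Gas5 (106 ± 11.2 CPM per kb), Snhg1 (39.4 ± 1.43), Snhg8 (30.9 ± 2.61), Snhg3 (28.0 ± 4.39), Snhg5 (27.2 ± 1.04), Snhg12 (23.7 ± 4.22), Snhg6 (14.9 ± 0.662), Snhg4 (7.93 ± 0.262) and Snhg11 (0.550 ± 0.497). The ranges of neighbours in this order overlapped for Snhg8 with Snhg3, Snhg3 with Snhg5, and Snhg5 with Snhg12. At 1 week the order was Gas5 (129 ± 28.5 CPM per kb), Snhg3 (87.1 ± 61.2), Snhg1 (66.8 ± 16.8), Snhg8 (46.7 ± 18.3), Snhg12 (37.3 ± 12.8), Snhg5 (29.6 ± 2.92), Snhg4 (29.2 ± 20.6), Snhg6 (21.9 ± 3.24) and Snhg11 (0.271 ± 0.133). At 1 week every pair of neighbours overlapped except Snhg6 and Snhg11.

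**Figure D4:**
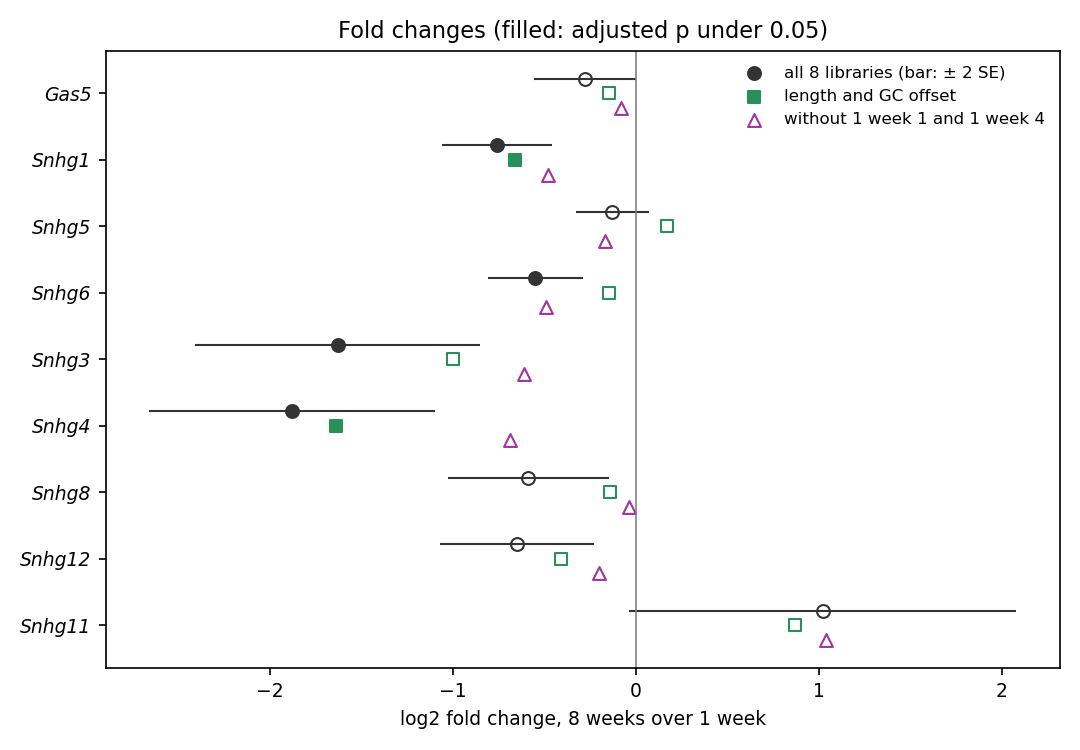
Log2 fold change of each host gene, 8 weeks over 1 week, from all 8 libraries (circles, bars of 2 SE each way), with the length and GC offset (squares) and without 1 week 1 and 1 week 4 (triangles). Filled symbols are called at an adjusted p under 0.05, and the values for Snhg3 and Snhg4 move from -1.63 and -1.88 to -0.61 and -0.69 without these 2 libraries.

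A list of long noncoding snoRNA hosts outside the 9 had 12 tested genes, with a median log2 fold change of -0.53. Of these 12, 6 were called lower and 0 higher, against 3.22% and 3.33% of all tested genes. They were Zfas1 (50.9 ± 6.10 CPM at 8 weeks and 84.1 ± 15 CPM at 1 week, edgeR adjusted p = 0.0145), Snhg20, Dancr, 2410006H16Rik, Snhg15 and Snhg16. Snhg20 stood at 21.1, 22.7, 22.6 and 16.6 CPM at 8 weeks, against 61.9, 34.0, 28.6 and 73.8 CPM at 1 week, without overlap (log2 fold change -1.25, edgeR adjusted p = 0.0193). Dancr averaged 14.7 ± 2.13 CPM at 8 weeks and 34.4 ± 18.7 CPM at 1 week (log2 fold change -1.22, edgeR adjusted p = 0.0297). Snhg17 averaged 34.8 ± 7.97 CPM at 8 weeks and 27.7 ± 3.29 CPM at 1 week and did not pass the test (edgeR adjusted p = 0.188). The 12 also include Mir17hg, by its name a microRNA host, which did not pass either (log2 fold change 0.40, edgeR adjusted p = 0.288). With the length and GC offset 2 of the 12 were called lower, against 1.64% of all tested genes, and the median was -0.13. Without 1 week 1 and 1 week 4 it was 0 of 13, against 0.187%, and the median was -0.46.

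Most genes in the list of protein-coding snoRNA hosts, which was chosen by name, make ribosomal proteins or factors of ribosome assembly. The list does not stand for all such hosts. Of 35 tested, 5 were called lower and 0 higher, against 3.22% and 3.33% of all tested genes. The median log2 fold change was -0.37, and the 5 called were the ribosomal protein genes Rps12, Rps3, Rpl13a, Rps20 and Rpl27a. Rps12 averaged 1405 ± 214 CPM at 8 weeks and 2130 ± 370 CPM at 1 week (log2 fold change -0.60, edgeR adjusted p = 0.0409). Over the 78 tested ribosomal protein genes, which include these 5 hosts, 16 were called lower and 0 higher. The log2 fold change was negative for 78 of 78 (median -0.43), against 50.2% of all tested genes (median 0.00). With the length and GC offset 3 of the 78 were called and 66 were negative. Without 1 week 1 and 1 week 4 the number called was 0, while 78 of 78 were negative (median -0.29). For the host list the number called was 1 with the offset and 0 without these libraries. Of all tested genes, 1.64% were called lower and 7024 of 14533 were negative with the offset. Without these libraries it was 0.187% and 7675 of 15516.

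The proteins that bind the snoRNAs did not pass the test. Of the C/D proteins Fbl (the methyltransferase), Nop56, Nop58 and Snu13, 0 of 4 were called, with a median log2 fold change of -0.25. Fbl averaged 100 ± 16.1 CPM at 8 weeks and 121 ± 20.8 CPM at 1 week (edgeR adjusted p = 0.209). Of the H/ACA proteins Dkc1 (the pseudouridine synthase), Nop10, Nhp2 and Gar1, 0 of 4 were called, with a median of -0.38. The smallest adjusted p among them was that of Nop10 (0.0543), with 23.3 ± 2.67 CPM at 8 weeks and 32.7 ± 6.41 CPM at 1 week. Of 11 assembly factors 0 were called, with a median of -0.31. Among them Nolc1 averaged 149 CPM at 8 weeks and 197 CPM at 1 week (edgeR adjusted p = 0.0592). Of all tested genes 6.55% were called in either direction. With the length and GC offset 1 of the 11 assembly factors was called lower, against 1.64% of all genes. The medians were then -0.17 (C/D proteins), -0.16 (H/ACA proteins) and -0.07 (assembly factors). Without 1 week 1 and 1 week 4 they were -0.16, -0.27 and -0.32, with 0 called in each list.

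Factors of nonsense-mediated decay and of the exon junction gave 0 calls among 17, with a median log2 fold change of 0.02. The kinase gene Smg1 averaged 280 ± 62.8 CPM at 8 weeks and 190 ± 33.4 CPM at 1 week (log2 fold change 0.56, edgeR adjusted p = 0.0555), and the helicase gene Upf1 averaged 185 ± 12.4 CPM at 8 weeks and 183 ± 3.44 CPM at 1 week. Of 13 genes of snoRNA trimming and RNA decay, 1 was called, the exonuclease gene Xrn1, which was higher at 8 weeks (104 ± 11 CPM, against 72.7 ± 6.93 CPM at 1 week, log2 fold change 0.52, edgeR adjusted p = 0.0205). Against 6.55% of all tested genes called, 1 of 13 is no result about the list, and with the length and GC offset or without 1 week 1 and 1 week 4 the number called was 0. Of 23 genes of RNA polymerase I and ribosomal RNA processing, 1 was called, Rrp9, a protein of the U3 snoRNA complex. It averaged 28.4 ± 3.41 CPM at 8 weeks and 41.2 ± 5.08 CPM at 1 week (log2 fold change -0.54, edgeR adjusted p = 0.0285). Against the same 6.55% of all tested genes, 1 of 23 is no result about this list either. Here too the number called was 0 with the offset and 0 without these libraries.

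In the table as a whole, annotated hosts were also grouped by where their snoRNA lies, a grouping chosen after values had been seen. Hosts with an ACA-box snoRNA in an exon numbered 36, of which 7 were called lower, with a median log2 fold change of -0.37, and 31 without the 9 genes, of which 5 were called lower (-0.32). Hosts with a C/D snoRNA in an exon numbered 23, of which 5 were called lower (-0.31), and 20 without the 9 genes, of which 4 were called lower (-0.31). Hosts with snoRNAs in introns only numbered 163, of which 7 were called higher and 6 lower (-0.01), near the 3.33% and 3.22% of all tested genes. Without the 9 genes these were 7 and 5 of 162. With the length and GC offset 1 of the 36 (median -0.16), 3 of the 23 (-0.12) and 3 of the 163 (-0.02) were called lower. The share of all tested genes called lower in that fit was 1.64%. Without 1 week 1 and 1 week 4 the numbers called were 0 in each of these groups, with medians of -0.23, -0.17 and 0.00. In that fit 0.187% of all genes were called lower. Hosts with another snoRNA in an exon numbered 17, of which 2 were called lower (-0.20). With the offset and without these libraries 0 of the 17 were called. The highest library of 1 week was 1.35-fold above the lowest in the median host with an ACA-box snoRNA in an exon (34 genes of at least 5 CPM), against 1.32-fold in the median tested gene.

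The genes most like the 9 in their library pattern, by Pearson r of log2 CPM as deviations from the age mean with the mean deviation of the 9, were H4c14 (0.957), Elp2 (0.957), Rab26os (0.946), Gm23153 (0.945) and Tchh (0.942), over 8 libraries and 10452 candidates. Gm23153, a row of the type misc_RNA, stood at 2.51, 1.57, 5.17 and 2.95 CPM at 8 weeks, against 16.6, 5.05, 2.34 and 12.1 CPM at 1 week. The histone gene H4c14 stood at 51.9, 50.4, 78.5 and 54.6 CPM at 8 weeks, against 85.4, 47.1, 43.6 and 66.6 CPM at 1 week. These genes were picked as the highest of all candidates, so their r is a description and no measure of a relation. Each of the 9 counts equally in the mean deviation. Among them is Snhg11, at 11 CPM in 8 weeks 3 and at most 3.30 CPM in the other libraries of that age.

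Markers of other cell types moved with age as well. The neuronal marker Tubb3 was lower at 8 weeks (log2 fold change -1.05, edgeR adjusted p = 0.0442). The neuronal markers Snap25 and Syt1 each averaged under 1 CPM at both ages. Fibroblast markers summed to 400 to 776 CPM at 8 weeks, against 923 to 1161 CPM at 1 week. This sum was almost wholly Dcn, while the collagen gene Col1a1 averaged 0.496 CPM at 8 weeks and 0.421 CPM at 1 week. Immune markers summed to 8.07 to 14.4 CPM at 8 weeks, against 16.5 to 28.7 CPM at 1 week, mostly the class II gene H2-Ab1, and 9 of 14 were in the table. Erythroid markers summed to 22.9 to 71.4 CPM at 8 weeks, against 3.38 to 13.7 CPM at 1 week. Of the 5 erythroid markers, 3 were called higher, against 3.33% of all tested genes. Endothelial and melanocyte markers summed to under 10 CPM, and muscle markers to under 2 CPM, in every library. The part of these cell types in the host gene results was not tested.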

How the data were processed

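The table held raw read counts per gene, which the authors deposited with a normalized signal (counts over the library's size factor), log2 fold changes, a Wald score and p-values. Per the submitters' processing notes, the tools were DESeq2 1.26.0, HTSeq 0.6.0, TopHat2 2.1.1, cutadapt 2.10 and bcl2fastq 2.20.0.422, and the build GRCm38; the roles, the annotation release and the strand setting are not given in the sources used here. Every row had at least 10 counts in all. Libraries were grouped by age from the labels, which give 4 animals per age, and 0 columns were left unmatched.

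The counts were tested with edgeR 4.0.16 in R 4.3.3 (filterByExpr at 10 counts per library and 15 in total, TMM, two-sided quasi-likelihood F test, Benjamini-Hochberg adjustment over 14533 genes). The fit was tested on simulated data. Log2 fold changes are 8 weeks over 1 week, with the SE from the F statistic. Alternatives were other scalings, filters, DESeq2 1.42.0, limma 3.58.1 (voom), replicate blocks, libraries left out, and an offset of a spline (4 degrees of freedom) on transcript length and GC content, for which 99.9% of tested genes had values. Leaving out 1 week 1 and 1 week 4 together is an alternative chosen after seeing the data. Exons and snoRNAs came from GENCODE M21, which held 99.8% of the identifiers, and promoters from RefSeq.

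The 9 genes, the gene lists and the tests were chosen with earlier results of these data known. The genes named are the 9, the called members of each list or its 3 members of smallest p, genes within 2000 bp of the 9, and the 5 genes most alike. A few others, named to say what a list holds, were chosen after their values were seen. Withheld results are not reported here.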

Additional observations from a re-analysis of the deposited data

Results flagged for a closer look

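Of 20 sets of 4 libraries (10 rows at each age), 2 had 1 library far from the other 3, and chance alone flags about 1 in 20 such sets. In Snhg11, 8 weeks 3 was far above the other libraries of its age, at 11 CPM (170 counts), and its gap to the next was 0.872 of the range. In the second row of Snhg4, 1 week 3 was far above the others of its age, at 0.565 CPM. This library held 7 counts, and the gap was 0.842 of the range.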

How the results depend on the processing

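Over all 8 libraries 952 genes, 4 of the 9 host genes and 24 members of the pathway lists were called. The numbers of host genes and of all genes called were 4 and 983 with the size factors of DESeq2, 4 and 978 with upper-quartile scaling, 3 and 843 with library size alone (13 list members), 4 and 971 when scaled without small structural RNA, 4 and 592 without a filter (9 list members), and 4 and 933 with the stricter filter (5 CPM in 4 libraries), under which Snhg11 was not tested. They were 5 and 2069 with the Wald test of DESeq2 (80 list members) and 4 and 1640 with limma-voom (61 list members). With the length and GC offset they were 2 and 415 (6 list members), and Snhg5 changed sign to 0.17. Leaving out 1 library at a time gave 0 to 6 host genes, 91 to 1891 genes and 0 to 75 list members; 0 host genes were called without 8 weeks 1 (136 genes) or without 8 weeks 3 (91 genes), and 1 without 1 week 1 (130 genes). Without 1 week 1 and 1 week 4 together 0 host genes, 60 genes and 0 list members were called, with 6 libraries in the fit.

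The title numbers 1 to 4 are shared by the ages, but same-numbered libraries did not deviate together (correlations of -0.31, -0.10, 0.00 and -0.10, and none was highest with its own number). With the title number as a replicate block 1 host gene (Snhg1), 161 genes and 3 list members were called. With the number in the library name as a block, which leaves out 1 library of each age, 3 host genes (Snhg3, Snhg4 and Snhg12), 92 genes and 2 list members were called. The cause of these changes was not tested. Snhg11, with 11 to 170 counts per library, has the least depth of the 9.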
